A study of Mus musculus with 2 samples.

Results

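Type I interferon-stimulated genes are the genes that a cell turns on when interferon-alpha or interferon-beta binds its receptor. The set described here holds 36 mouse genes, listed by symbol, of 32285 genes in the deposited gene table. Of these, 34 matched the gene table by symbol, and Mx1 and Mx2 are not analysed here. The cells were CD45-positive immune cells, sorted from tumours grown from B16-hAXL cells. B16 is a mouse melanoma line, and the name B16-hAXL is read here as a line carrying human AXL. All mice were labelled wild type and carried the same tumour. One group had been injected intraperitoneally with PBS, the vehicle, and the other with 200 µg of 6C5, an antibody against AXL, and both were labelled day 15. AXL belongs with TYRO3 and MERTK to a family of receptor kinases that aid the uptake of dying cells and damp innate immune responses. Each group has 1 single-cell RNA-seq library. The number, age and sex of the mice behind a library are not given in the sources used here.

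Interferon-alpha and interferon-beta signal through the receptor IFNAR1-IFNAR2 and the kinases JAK1 and TYK2 to a transcription factor complex, which binds the interferon-stimulated response element (ISRE) in promoters. The genes it turns on block the translation, copying and release of viruses, and some of them feed back on the pathway: IRF7 drives further interferon-alpha genes, and USP18 shuts the receptor down. In tumours these genes are read in immune and cancer cells alike as a record of interferon exposure, and many of them also respond to interferon-gamma or directly to nucleic acid sensing.

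The promoters of 5 of these genes are shown because their transcripts carry the contrasts described below. They are the 250 bases before the RefSeq transcript start on the gene's own strand, from build GRCm38.p6, with the ISRE core in capitals. The core was searched on both strands as GAAA, any 2 bases and GAAA, which on the opposite strand reads TTTC, any 2 bases and TTTC. Isg15, at chr4:156200819-156201068 on the minus strand, holds 3 overlapping matches in 1 run. Ifit1, at chr19:34640639-34640888 on the plus strand, holds 2, and Rsad2, at chr12:26456453-26456702 on the minus strand, holds 1. Cmpk2, at chr12:26468965-26469214 on the plus strand, holds none. It lies head to head with Rsad2, with 12751 bases between the gene models of GENCODE mouse release M21. Ddx60, at chr8:61927837-61928086 on the plus strand, holds 2.
Isg15: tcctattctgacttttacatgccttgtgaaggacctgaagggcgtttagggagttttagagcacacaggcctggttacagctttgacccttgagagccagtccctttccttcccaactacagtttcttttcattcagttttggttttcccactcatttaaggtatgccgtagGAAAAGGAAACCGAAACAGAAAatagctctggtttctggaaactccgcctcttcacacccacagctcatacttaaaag
Ifit1: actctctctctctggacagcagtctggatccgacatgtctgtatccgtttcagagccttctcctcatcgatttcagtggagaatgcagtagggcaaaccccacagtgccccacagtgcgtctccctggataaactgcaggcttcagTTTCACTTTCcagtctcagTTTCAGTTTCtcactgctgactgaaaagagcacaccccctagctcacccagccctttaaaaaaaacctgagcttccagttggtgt
Rsad2: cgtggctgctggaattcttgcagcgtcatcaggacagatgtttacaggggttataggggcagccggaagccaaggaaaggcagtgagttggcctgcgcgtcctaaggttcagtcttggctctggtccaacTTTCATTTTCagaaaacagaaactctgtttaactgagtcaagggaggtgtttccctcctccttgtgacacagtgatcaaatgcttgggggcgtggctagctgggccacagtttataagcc
Cmpk2: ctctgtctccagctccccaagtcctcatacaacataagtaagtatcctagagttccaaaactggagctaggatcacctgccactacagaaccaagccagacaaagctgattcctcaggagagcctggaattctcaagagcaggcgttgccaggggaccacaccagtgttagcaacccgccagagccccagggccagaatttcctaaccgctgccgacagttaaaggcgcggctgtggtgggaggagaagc
Ddx60: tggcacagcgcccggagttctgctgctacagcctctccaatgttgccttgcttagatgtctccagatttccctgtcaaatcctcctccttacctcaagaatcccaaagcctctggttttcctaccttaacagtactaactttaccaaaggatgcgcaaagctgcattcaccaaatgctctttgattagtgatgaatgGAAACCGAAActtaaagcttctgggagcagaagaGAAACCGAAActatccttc

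RefSeq promoter windows of 300 bases, 250 before and 50 after the transcript start, were at hand for 27 of the 36 genes. The ISRE core was found on either strand in 15 of the 27 (55.6%), against 3.99% of the 27025 symbols with a window. The gamma-activated site TTCNNNGAA, which reads the same on both strands, was found in 5 of the 27 (18.5%), against 9.55% of all symbols. A match is a run of letters, and binding was not measured. The 12 without it were Cmpk2, Herc6, Ifi44, Ifit2, Irf7, Irf9, Isg20, Oasl1, Oasl2, Phf11d, Samd9l and Xaf1. The 5 Ifit genes lie together on chromosome 19, from Ifit2 at position 34550694 to the end of Ifit1 at 34650009. The 6 Oas and Oasl genes lie on chromosome 5 (GENCODE mouse release M21, mm10).

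The PBS library held 78923567 unique molecular identifiers (UMIs, each read as 1 captured transcript) and the 6C5 library 85921419. After filtering, 12426 and 12074 barcodes were left, of which 4055 and 4440 were named immune cells and 180 and 403 were melanoma-like. The other barcodes, 8191 in PBS and 7231 in 6C5, stayed unnamed, mostly because their profile was that of free RNA. Cells were clustered without the 36 genes and without the 4 pathway lists used below, and of 431588 barcodes listed in both libraries 272 were kept as cells in both. Every cluster of a class had more markers of its own class than of another among its first 10 genes. The median mitochondrial share of UMIs was lower in the 6C5 library in each class, from 0.656% to 0.277% in monocytes and macrophages and from 0.312% to 0.205% in neutrophils. Its part in the results was not tested.

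Levels below are UMIs of a gene per 1000000 UMIs of the cell class (CPM). Intervals are exact 95% intervals, and they cover the counting of molecules alone. A test needs more than the 1 library per group, so "higher" and "lower" compare these 2 libraries and have no replicate check. A gene counts as measured in a class with at least 30 UMIs over both libraries, and counts are of genes whose CPM differs at least 2-fold. The first such count for a class or subcluster stands beside the share of all its measured genes that meet the same rule, and later counts are read against that share. Shares over all genes were computed on the CPM scale in the main processing alone. Counts under other scalings, cell filters or subcluster weightings have no matching share.

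In neutrophils nearly the whole program was higher in the 6C5 library. Of 33 genes measured, 30 were at least 2-fold higher and none at least 2-fold lower, against 8.09% of all 5896 measured genes higher and 14.5% lower. The median log2 ratio was 2.06, against -0.24 over all genes measured. The summed level of the 34 genes was 5418 CPM in 526 PBS neutrophils and 21889 CPM in 1059 6C5 neutrophils, a ratio of 4.04 (3.95 to 4.14). In 32 genes the interval lay above 1, as it did in 15.7% of all genes. The summed level of 13 neutrophil markers was itself lower in the 6C5 library, 92186 and 55019 CPM, and that of 10 classical monocyte markers higher, 1063 and 1739 CPM, and their part in the result was not tested. Scaling by TMM factors put the median of all genes in neutrophils at 0.15 and that of the 33 genes at 2.45.

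**Figure D1:**
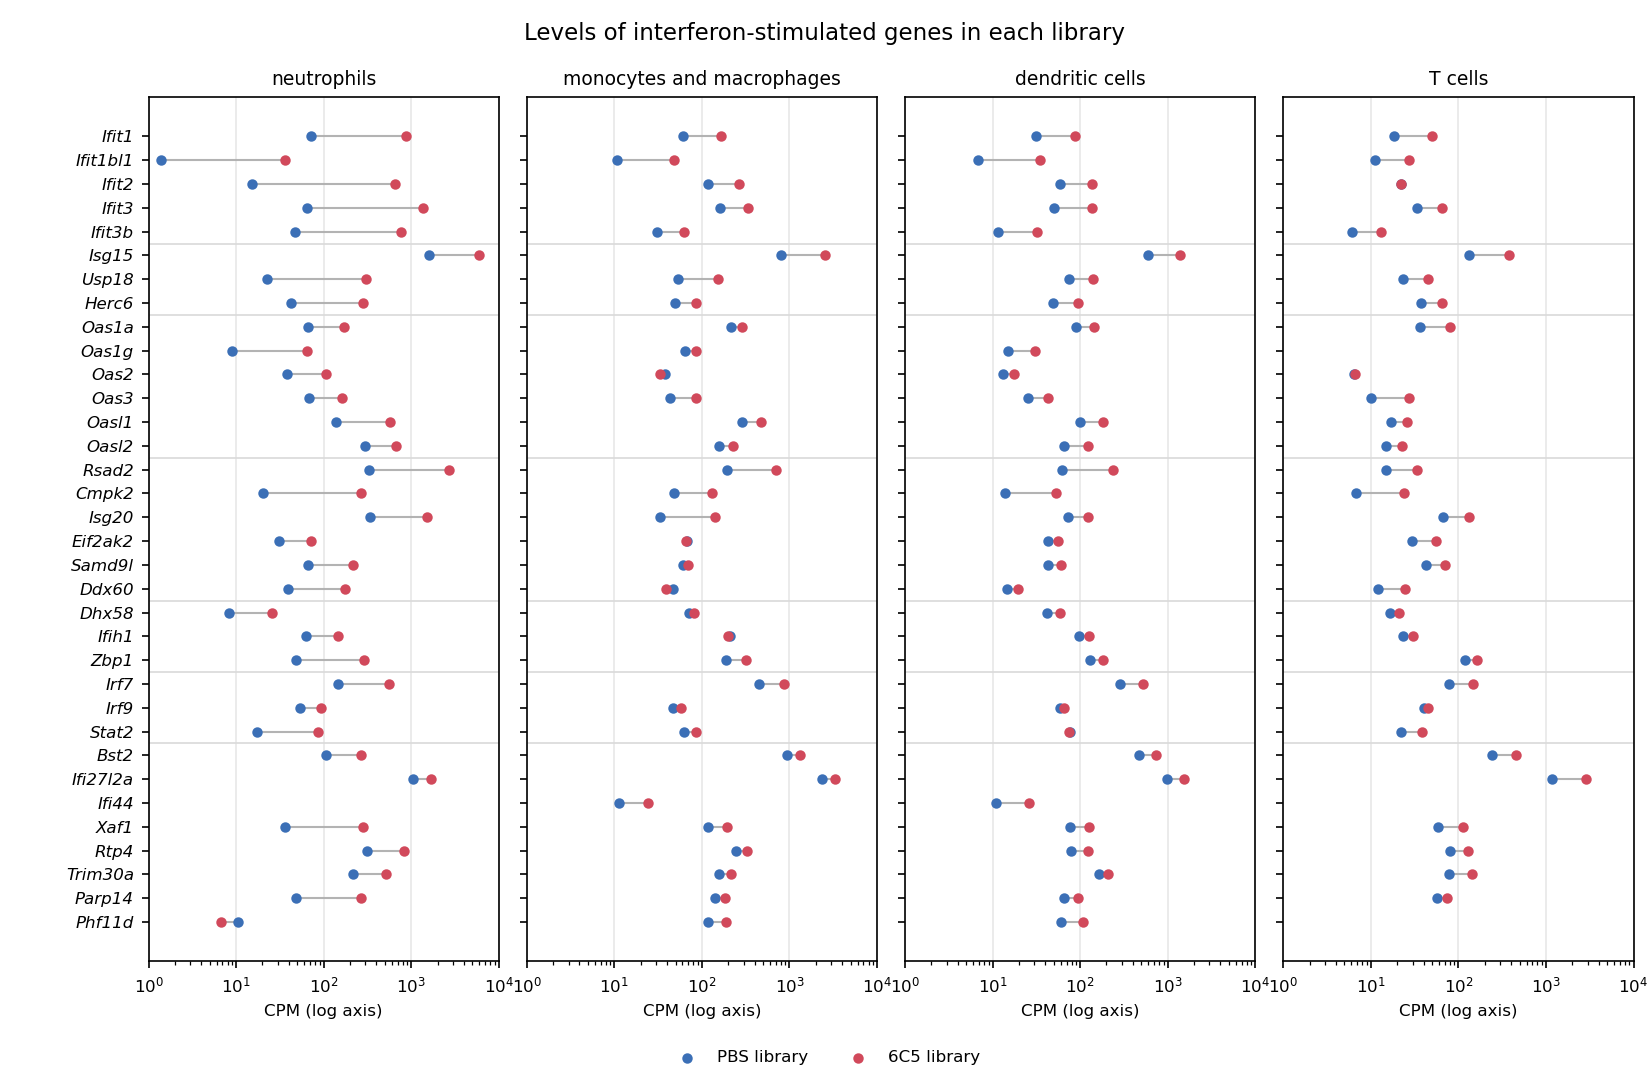
Level of each gene (CPM, log axis) in the PBS library (blue) and the 6C5 library (red) in 4 cell classes, 1 library per group and so no error bars. Genes are grouped by role with grey lines between the groups, and genes under 30 UMIs in a class are left out. In neutrophils the red points lie to the right for 32 of 33 genes, Phf11d being the exception, and the gaps of the Ifit genes are wide. In monocytes and macrophages Oas2, Ddx60 and Ifih1 lie slightly to the left, on the CPM scale only.

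The Ifit genes encode proteins with tetratricopeptide repeats that bind viral RNA or translation factors. Ifit2 was at 15.3 CPM in PBS neutrophils (22 UMIs) and at 649 CPM in 6C5 neutrophils (1906 UMIs), a ratio of 42.4 (27.9 to 67.8). Ifit3 was at 64.8 and 1369.7 CPM, a ratio of 21.1 (17.2 to 26.3). Ifit1 was at 72.4 and 879 CPM, a ratio of 12.1 (9.98 to 14.9). All 5 genes of the family were above 12-fold by these ratios, with Ifit3b at 16.2 (12.7 to 20.9) and Ifit1bl1 at 26.2 (7.07 to 219). The last rests on 2 UMIs in PBS. Free RNA, the transcripts loose in the suspension, was estimated to give 59.2% of the Ifit2 UMIs in PBS neutrophils and 1.70% in 6C5 neutrophils, and with it subtracted the log2 ratio of Ifit2 went from 5.41 to 6.62. Ifit3 and Ifit3b share 31.7% and 27.4% of the 100-base stretches of their longest transcripts, but 3.4% and 0% of the last 500 stretches, near the end that this chemistry reads.

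ISG15 is a ubiquitin-like protein that is attached to other proteins, USP18 removes it and HERC6 attaches it. Isg15 was at 1596 CPM in PBS neutrophils and 5916 CPM in 6C5 neutrophils, a ratio of 3.71 (3.55 to 3.87). Usp18 was at 22.3 and 305 CPM, a ratio of 13.7 (9.63 to 20.2), and Herc6 at 42.5 and 284 CPM, a ratio of 6.68 (5.15 to 8.81). All 3 genes were higher, and the enzymes had larger ratios than Isg15 itself. Among effectors, Rsad2 encodes viperin, which makes a chain-terminating nucleotide, and its neighbour Cmpk2 a mitochondrial nucleotide kinase. Rsad2 was at 327 and 2683 CPM, a ratio of 8.21 (7.48 to 9.04), and Cmpk2 at 20.2 and 268 CPM, a ratio of 13.3 (9.17 to 20.0). Isg20, an exonuclease gene, was at 338 and 1498 CPM, a ratio of 4.43 (4.03 to 4.87).

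The OAS family senses double-stranded RNA, and its active enzymes make the 2-5A messenger that activates RNase L. All 6 members were at least 2-fold higher in 6C5 neutrophils, against 8.09% of all genes. Oas1a was at 66.9 and 169.7 CPM, a ratio of 2.54 (2.04 to 3.19), and Oasl1 at 139 and 579.6 CPM, a ratio of 4.16 (3.59 to 4.84). Oas1g had a ratio of 7.08 (4.04 to 13.5), from 13 UMIs in PBS, and its log2 ratio went from 2.82 to 3.47 with free RNA subtracted. Oas1a and Oas1g share 40.9% and 38.2% of their 100-base stretches, so the division between them is uncertain. The family's median log2 ratio was 1.41, against 4.40 for the Ifit genes.

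Sensors and transcription factors were higher too. Zbp1, a sensor of Z-form nucleic acid that can start necroptosis, was at 48.1 and 292 CPM in neutrophils, a ratio of 6.08 (4.75 to 7.88). Ifih1, which encodes the RNA sensor MDA5, was at 63.4 and 145 CPM, a ratio of 2.29 (1.82 to 2.90). Of the complex that carries the signal, Stat2 was at 17.4 and 86.9 CPM, a ratio of 4.99 (3.30 to 7.86), whereas Irf9 was at 53.6 and 93.0 CPM, a ratio of 1.73 (1.34 to 2.26). Irf7 was at 145 and 552 CPM, a ratio of 3.81 (3.30 to 4.42). Besides Irf9, 2 measured genes stayed under 2-fold on the CPM scale. Ifi27l2a, a small mitochondrial protein gene, was at 1052 and 1665 CPM, a ratio of 1.58 (1.49 to 1.68). Phf11d was at 10.4 and 6.81 CPM, a ratio of 0.652 (0.317 to 1.37). Under TMM factors Irf9 and Ifi27l2a passed 2-fold, at log2 ratios of 1.18 and 1.05, and Phf11d did not. Phf11d rests on 15 and 20 UMIs, of which 90.6% and 88.9% were put down to free RNA, and 36.2% of its last 500 stretches of 100 bases are shared with Phf11a, Phf11b and Phf11c.

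The neutrophils of the 2 libraries fell largely into different subclusters. The 36 genes and the 4 pathway lists had not been used to make them, but other interferon-inducible genes could be. In N.0, 31 of the genes were among the 200 leading genes, so subclusters are not independent of the program. Subclusters N.0, N.3, N.4 and N.5 held 4, 14, 7 and 11 PBS cells against 249, 189, 185 and 178 6C5 cells. N.0 was led by Cxcl10, Gbp5 and Gbp2, which are interferon-inducible genes outside the set, and its summed level of the 34 genes was 48899 CPM in 6C5 cells. In N.4 the sum was 23535 CPM in 6C5 cells, and in N.3 and N.5 it was 9772 and 8439 CPM. The remaining 4 subclusters held at least 30 cells of each library, and in all of them the sum was higher in the 6C5 library. It was 6636 and 9657 CPM in N.1, a ratio of 1.46 (1.37 to 1.54), and 5214 and 9478 CPM in N.2, which was led by Pi16 and Retnlg, a ratio of 1.82 (1.70 to 1.94). N.6, led by the heat-shock genes Hspa1b and Hspa1a, was at 4108 and 15446 CPM, a ratio of 3.76 (3.51 to 4.03). N.7, led by Id3, Gm26917 and S100a4, was at 5081 and 15492 CPM, a ratio of 3.05 (2.82 to 3.30). It had the largest free RNA shares of these 4 subclusters, 14.7% in PBS and 10.0% in 6C5. Its median cell held 2192 UMIs in PBS and 3189 in 6C5. Among the leading genes of N.7 were also Ms4a6c, Ms4a4a, Ms4a4c and Ms4a6d. Ms4a4a was a leading gene of the monocyte-like subclusters M.0 and M.1 described below as well. PBS cells of N.7 held 8 of the 10 UMIs of Ifnb1, the interferon-beta gene, in PBS neutrophils. The part of monocyte RNA in the N.7 values was not tested.

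Within these shared neutrophil subclusters the same named genes could be followed one by one. Rsad2 had ratios of 2.68 (2.16 to 3.33) in N.1, 2.13 (1.55 to 2.93) in N.2, 4.54 (3.68 to 5.63) in N.6 and 6.07 (4.52 to 8.30) in N.7. Ifit3 ranged from 2.36 (1.43 to 3.92) in N.1 to 53.8 (24.1 to 149) in N.6, the latter from 6 UMIs in PBS. Isg15 had a ratio of 1.48 (1.34 to 1.64) in N.1 and 3.71 (3.25 to 4.25) in N.6. With each subcluster given its share of the neutrophils of both libraries together, 17 of 33 genes were at least 2-fold higher and the median log2 ratio was 1.01. Over the 4 shared subclusters alone it was 19 of 30 with a median of 1.29, an alternative chosen after seeing the data. The share of all genes was not computed for either count. The weighting gave N.0, with 4 PBS cells, its full pooled share.

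**Figure D2:**
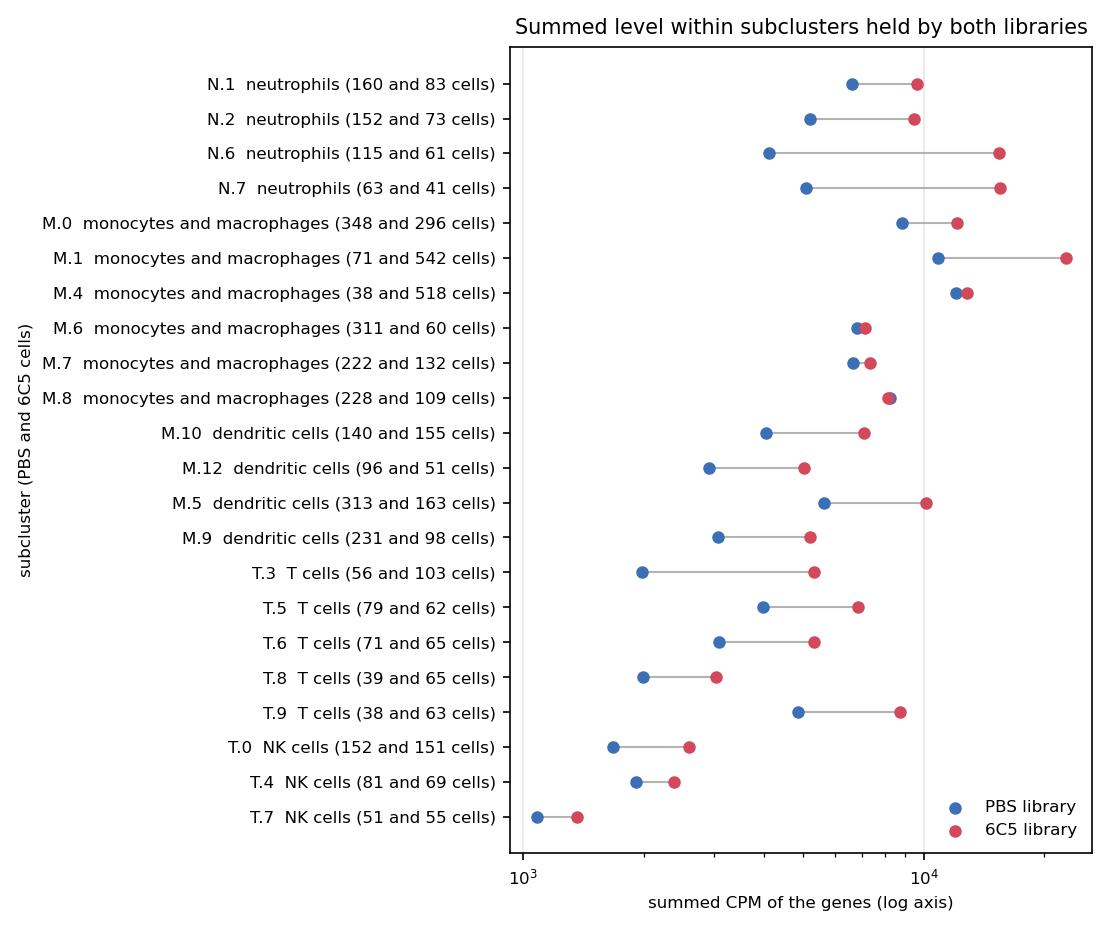
Summed level of the 34 genes (CPM, log axis) in the PBS library (blue) and the 6C5 library (red) for each subcluster with at least 30 cells in each library, with the numbers of PBS and 6C5 cells in brackets and no error bars. The neutrophil, dendritic cell, T and NK subclusters are all higher in the 6C5 library, whereas M.4, M.6, M.7 and M.8 have nearly coinciding points, with ratios from 0.989 to 1.10.

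Monocytes and macrophages showed a narrower difference that depended on the gene. Of 34 genes measured, 11 were at least 2-fold higher in the 6C5 library and none at least 2-fold lower, against 3.42% of all 12256 measured genes higher and 13.4% lower. The median log2 ratio was 0.69, against -0.35 over all genes. The summed level was 7658 CPM in 1794 PBS cells and 13383 CPM in 1887 6C5 cells, a ratio of 1.75 (1.74 to 1.76). Intervals lay above 1 in 30 genes (15.1% of all genes). Under TMM factors, which moved the median of all genes to -0.03, 17 of the 34 were at least 2-fold higher, and under median-of-ratios size factors 18 were. The share of all genes at least 2-fold higher was not computed under these scalings.

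Marker levels differed between the libraries as well: the summed level of 10 classical monocyte markers was 2044 and 3600.2 CPM, that of 16 macrophage markers 22884 and 18314 CPM, and that of 12 B cell markers 311 and 54.3 CPM. Their part in the result was not tested.

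The genes past 2-fold were the 5 Ifit genes, Isg15, Usp18, Rsad2, Cmpk2, Isg20 and Ifi44. Isg15 was at 805 CPM in PBS and 2538 CPM in 6C5, a ratio of 3.15 (3.10 to 3.20). Rsad2 was at 192 and 700.0 CPM, a ratio of 3.65 (3.54 to 3.77), and Isg20 at 33.5 and 140.2 CPM, a ratio of 4.18 (3.88 to 4.52). By role these were all 5 Ifit genes, 2 of 3 genes of the ISG15 system, 3 of 6 nucleotide and RNA effectors and 1 of 8 membrane and other genes. On the CPM scale no sensor, transcription factor or OAS gene was among them, and Oas1a was at 217 and 284 CPM, a ratio of 1.31 (1.26 to 1.36). This split by role depended on the scaling. Under TMM factors the log2 ratios of Irf7, Zbp1, Oas3 and Oasl1 were 1.28, 1.06, 1.29 and 1.03, all past 2-fold. The RNA sensors Ifih1, at 209 and 197 CPM, and Ddx60, a helicase gene thought to assist them, at 47.4 and 38.7 CPM, were at ratios of 0.943 (0.906 to 0.982) and 0.817 (0.748 to 0.893). Their log2 ratios and that of Oas2, -0.08, -0.29 and -0.20 on the CPM scale, turned to 0.23, 0.03 and 0.11 under TMM factors. Eif2ak2, which encodes the kinase PKR that halts translation, turned likewise, from -0.02 to 0.30.

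Pooled, the monocyte-like subclusters had a larger ratio than the macrophage-like ones, but the monocyte-like subclusters M.0, M.1 and M.7 differed widely among themselves. Over subclusters named monocyte-like the sum was 8516 and 17628 CPM, a ratio of 2.07 (2.05 to 2.09), and 15 of 34 genes were at least 2-fold higher (3.06% of all genes). Over those named macrophage-like it was 7382 and 10415 CPM, a ratio of 1.41 (1.40 to 1.42), and 6 of 34 genes were (3.8%). The difference between these ratios was not tested, because each has 1 library per group. M.1, a monocyte-like subcluster led by Cxcl3 and Arg1, was at 10877 CPM in 71 PBS cells and 22629 CPM in 542 6C5 cells. Its ratio was 2.08 (2.03 to 2.13), with Cmpk2 at 3.94 (3.02 to 5.24), Isg15 at 2.87 (2.72 to 3.03) and Irf7 at 2.43 (2.20 to 2.69). M.0, led by Vcan and Ifnb1, was at 8832 and 12136 CPM, a ratio of 1.37 (1.35 to 1.39).

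In 4 other subclusters of the class the libraries lay close together. M.8, led by Gas6 and Cbr2, was at 8223 and 8132 CPM, a ratio of 0.989 (0.970 to 1.01), and M.6, led by cell-cycle genes, at 6804 and 7145 CPM, a ratio of 1.05 (1.03 to 1.07). M.7, monocyte-like and led by Hp, Ace and Chil3, had a ratio of 1.10 (1.07 to 1.14). M.4, led by Gbp2b and Calhm6, had a ratio of 1.07 (1.04 to 1.09). In M.4 the sum was already 12051 CPM in its 38 PBS cells, and 11 of the genes were among its 200 leading genes. There Rsad2 was lower in the 6C5 library, at 821 and 482 CPM, a ratio of 0.587 (0.533 to 0.649), and Isg15 higher, at 1608 and 2143 CPM, a ratio of 1.33 (1.25 to 1.43). In M.8 Ddx60 was at 87.6 and 31.7 CPM, a ratio of 0.362 (0.271 to 0.477), and was the 1 gene of the set at least 2-fold lower in a myeloid subcluster, against 5.25% of all genes there. Isg20 was at least 2-fold higher in M.6 (2.5% of all genes) and M.8 (2.07%), with ratios of 2.94 (1.93 to 4.44) and 2.23 (1.59 to 3.13).

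The subcluster makeup of the class differed as well. M.1 and M.4, the subclusters with the highest sums, were 3.96% and 2.12% of PBS monocytes and macrophages and 28.7% and 27.5% of those in 6C5. M.3, led by Vcam1 and Ptprm, held 554 PBS cells and 5 6C5 cells. With each subcluster given its share of the cells of both libraries together, none of the 34 genes was at least 2-fold higher, and the median log2 ratio was 0.31. That weighting gave M.3, with 5 6C5 cells, and M.11, with 22 PBS cells, their full pooled shares. Over the subclusters with at least 30 cells in each library, 13 of 34 were, with a median of 0.80, an alternative chosen after seeing the data. The share of all genes was not computed for either count.

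Dendritic cells present antigen, and cDC1 cells do so for CD8 T cells in particular. Of 34 genes measured in them, 10 were at least 2-fold higher in the 6C5 library and none at least 2-fold lower, against 2.18% of all 10933 measured genes higher and 2.73% lower. The median log2 ratio was 0.75, against -0.09 over all genes, and the sum was 4035 CPM in 780 PBS cells and 7113 CPM in 467 6C5 cells, a ratio of 1.76 (1.74 to 1.79). Rsad2 was at 61.4 and 235 CPM, a ratio of 3.83 (3.50 to 4.19), and Cmpk2 at 13.9 and 52.4 CPM, a ratio of 3.78 (3.12 to 4.59). The other 8 were the 5 Ifit genes, Isg15, Oas1g and Ifi44. Stat2 was at 75.9 and 75.4 CPM and Irf9 at 58.3 and 65.7 CPM, and their intervals included 1. The summed level of 11 mature dendritic cell markers was 3372 CPM in PBS and 4929.5 CPM in 6C5, and that of 11 cDC1 markers 2657 and 1904 CPM. Their part in the result was not tested.

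The kinds of dendritic cell gave ratios of the sum close to one another. The summed level had a ratio of 1.70 (1.66 to 1.74) in cDC1, 1.80 (1.76 to 1.83) in cDC2 and 1.75 (1.70 to 1.81) in mature dendritic cells, which carry Ccr7 and Fscn1. At least 2-fold higher were 12 of 34 genes in cDC1 (1.68% of all genes), 12 in cDC2 (2.24%) and 11 in mature cells (4.4%). Single genes varied more. Cmpk2 was at 4.36 and 87.6 CPM in mature cells, a ratio of 20.1 (9.53 to 50.8), against 2.49 (1.76 to 3.54) in cDC2. Rsad2 was at 51.7 and 383 CPM in mature cells, a ratio of 7.41 (5.89 to 9.42), and at 115 and 228 CPM in cDC2, a ratio of 1.99 (1.74 to 2.28). Levels in M.12, a cDC1 subcluster whose leading genes include immunoglobulin genes, had a ratio of 1.73 (1.67 to 1.79).

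T cells had a ratio of 2.14 (2.08 to 2.19), from 2546 CPM in 336 PBS cells to 5437 CPM in 437 6C5 cells. Of 31 genes measured, 10 were at least 2-fold higher and none at least 2-fold lower, against 1.29% of all 9529 measured genes higher and 1.69% lower. The median log2 ratio was 0.90, against -0.02 over all genes. Ifi27l2a accounted for 1182 CPM of the PBS sum and 2905 CPM of the 6C5 sum, a ratio of 2.46 (2.37 to 2.55). Isg15 was at 133 and 383 CPM, a ratio of 2.87 (2.57 to 3.22), and Cmpk2 at 6.71 and 24.0 CPM, a ratio of 3.57 (2.18 to 6.14). Ifit2, which had the widest ratio in neutrophils, was at 22.1 and 22.3 CPM in T cells, a ratio of 1.01 (0.720 to 1.42). Of the RNA sensors, Ifih1 at 1.28 (0.939 to 1.75) and Dhx58 at 1.27 (0.878 to 1.86) had intervals that included 1 as well.

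CD8 T cells of subcluster T.3, led by Ccl1, Cd8a and Lag3, had a sum of 1975 CPM in 56 PBS cells and 5337 CPM in 103 6C5 cells, a ratio of 2.70 (2.56 to 2.85). There 16 of 24 genes were at least 2-fold higher (3.36% of all genes), among them Ifi27l2a at 1152 and 3541 CPM, a ratio of 3.07 (2.87 to 3.29). Regulatory T cells (T.9, with Foxp3 and Tnfrsf4) were at 4846 CPM in 38 PBS cells and 8757 CPM in 63 6C5 cells, a ratio of 1.81 (1.72 to 1.90), and 8 of 23 genes were at least 2-fold higher (2.08%). In them Isg15 was at 168 and 808 CPM, a ratio of 4.80 (3.71 to 6.28). The regulatory cells had the higher sum of these 2 subclusters in both libraries, and the CD8 subcluster the larger ratio. In T.6, whose cells carry Ly6c2 and Klra6, Usp18 was at 69.7 and 21.4 CPM, a ratio of 0.307 (0.114 to 0.708), from 32 and 7 UMIs, while Bst2 was at 294 and 679 CPM, a ratio of 2.31 (1.85 to 2.88).

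**Figure D3:**
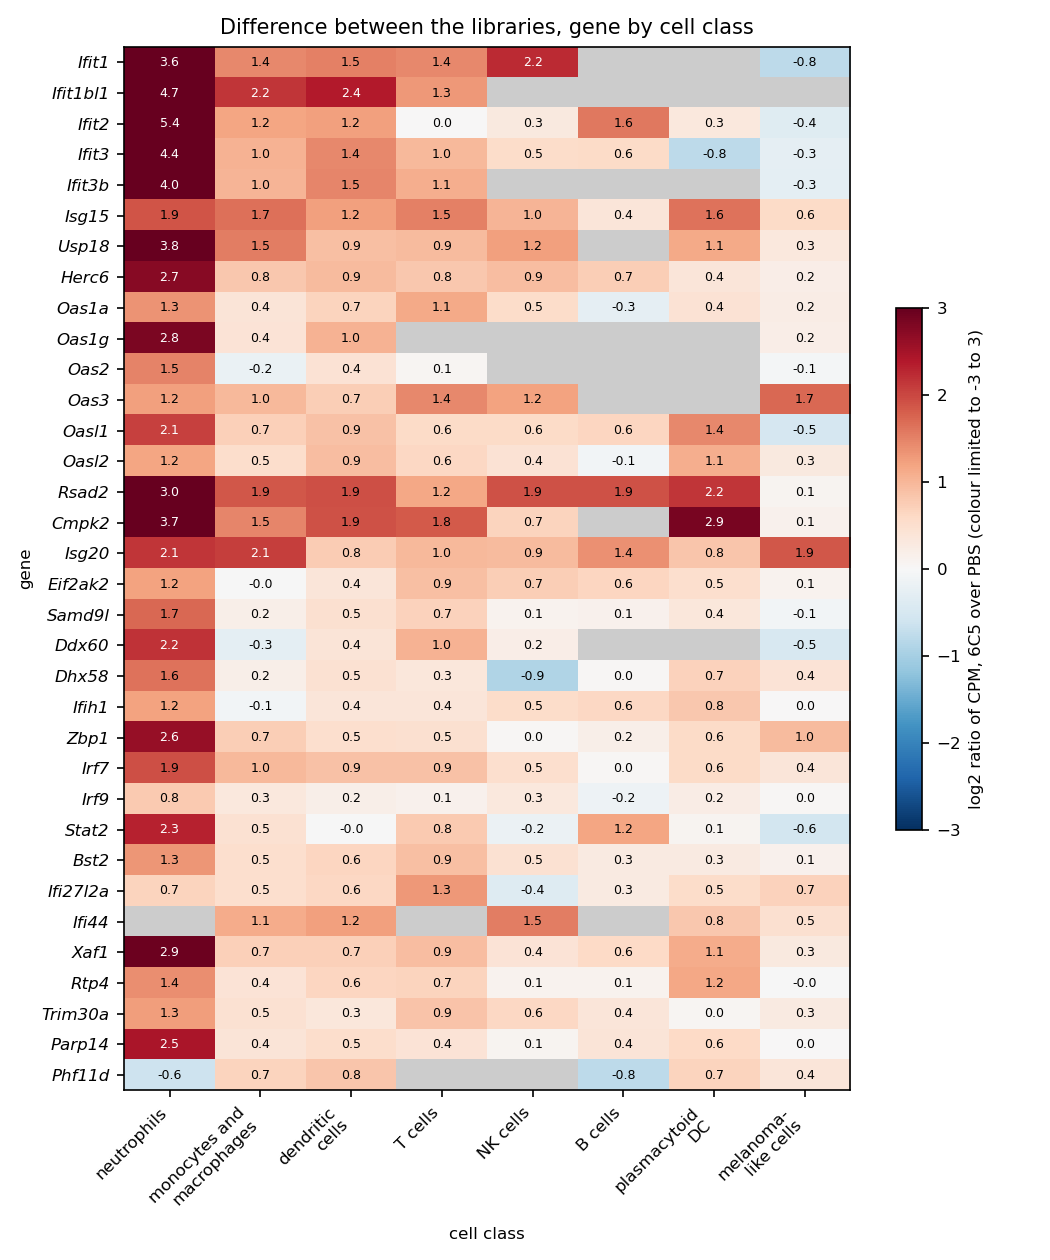
Log2 ratio of CPM, 6C5 over PBS, for each gene (rows, grouped by role) in 7 immune cell classes and melanoma-like cells (columns). Red is higher and blue lower in the 6C5 library, grey marks genes under 30 UMIs, colours stop at -3 and 3, and there is 1 library per group. The neutrophil column is red for all genes but Phf11d and the grey Ifi44, while melanoma-like cells are pale, with blue Ifit genes, of which Ifit2, Ifit3 and Ifit3b have intervals that include 1 under TMM factors. The pale blue cells of Oas2, Ddx60, Ifih1 and Eif2ak2 in monocytes and macrophages turn above 0 under TMM factors.

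NK cells, B cells and plasmacytoid dendritic cells had ratios of the sum below 1.5. In NK cells the sum was 1481 CPM in 284 PBS cells and 2043 CPM in 275 6C5 cells, a ratio of 1.38 (1.31 to 1.45), and 6 of 29 genes were at least 2-fold higher (0.92% of 8373 genes). The 6 were Ifit1, Isg15, Usp18, Oas3, Rsad2 and Ifi44. Ifit1 had a ratio of 4.69 (2.42 to 9.96), from 11 and 52 UMIs. The intervals of Dhx58 and Ifi27l2a lay below 1: Dhx58, a regulator of RNA sensing, was at 19.9 and 10.7 CPM, a ratio of 0.536 (0.295 to 0.947), and Ifi27l2a was at 163 and 125 CPM, a ratio of 0.762 (0.640 to 0.907). Intervals below 1 were found in 9.52% of all genes in NK cells.

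In B cells 4 of 24 genes were at least 2-fold higher (1.26% of 5780 genes): Ifit2, Isg20, Rsad2 and Stat2. Rsad2 was at 23.5 and 88.3 CPM, a ratio of 3.76 (2.19 to 6.79), from 18 and 58 UMIs. The sum had a ratio of 1.25 (1.18 to 1.33), and the interval lay above 1 in 6 of the 24 genes (4.91% of all genes) and included 1 in the other 18. With a minimum of 100 UMIs, 9 genes were measured in B cells and none was at least 2-fold higher (0.462% of all genes).

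Plasmacytoid dendritic cells, the specialised producers of interferon-alpha, were few, with 81 PBS and 75 6C5 cells. They had the highest summed level of any class in PBS, 8418 CPM, and 11885 CPM in 6C5, a ratio of 1.41 (1.36 to 1.46). The summed level of 16 macrophage markers in these cells was 1663 and 2826 CPM, that of 11 T cell markers 56.5 and 167 CPM, and that of 11 mature dendritic cell markers 861 and 354 CPM, while 11 markers of the class itself were at 11827 and 11401 CPM. Their part in the result was not tested. Bst2, also known as tetherin and a surface marker of these cells, made up 4382 CPM in PBS and 5254 CPM in 6C5, a ratio of 1.20 (1.14 to 1.26). Of 27 genes measured, 8 were at least 2-fold higher (2.98% of 5565 genes), among them Rsad2 at 36.2 and 161 CPM, a ratio of 4.44 (2.84 to 7.19), and Cmpk2 from 4 and 26 UMIs. The Ifit genes were not among them: Ifit2 had a ratio of 1.25 (0.751 to 2.1) and Ifit3 of 0.580 (0.263 to 1.21), and the other 3 were under 30 UMIs.

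Across the 7 immune classes Rsad2 was at least 2-fold higher in all 7 and Isg15 in 6, B cells being the exception at a ratio of 1.28 (1.02 to 1.62). Ifit1 was at least 2-fold higher in each of the 5 classes where it was measured, and Cmpk2 in 5 of 6. Irf9 was at least 2-fold higher in none of 7 on the CPM scale, with log2 ratios from -0.15 in B cells to 0.79 in neutrophils. Under TMM factors the value in neutrophils was 1.18. Which class had the highest level also differed between the libraries. In PBS 16 of the 34 genes were highest in monocytes and macrophages and 9 in neutrophils, and in 6C5 8 and 22 were. This ranking took all 34 genes, with no minimum of UMIs, and the same count over all genes was not made. Among members with an ISRE core in the promoter window, 15 of 15 measured were at least 2-fold higher in neutrophils (8.09% of all genes) and 6 of 15 in monocytes and macrophages (3.42%). Of those whose window held none, 9 of 11 and 4 of 12 were, and of those with no window at hand 6 of 7 and 1 of 7.

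Per cell, the difference was also seen after each cell was thinned to 1000 UMIs and shallower cells were left out. The median thinned neutrophil held 3 UMIs of the 34 genes in PBS (517 cells) and 13 in 6C5 (1020 cells). The upper quartile was 7 in PBS and 33 in 6C5, so the 6C5 neutrophils were spread widely. Cells with 10 or more such UMIs were 16.4% of PBS and 56.4% of 6C5 neutrophils. The unthinned medians were 36.3 and 139 per 10000 UMIs. Monocytes and macrophages had medians of 7 and 11, T cells of 2 and 4, and NK cells of 1 in both libraries. Free RNA gives every cell some of these UMIs: it was put at 10.0% of neutrophil UMIs in PBS and 6.60% in 6C5. In free RNA itself the sum was 5320.5 CPM in PBS and 7402 CPM in 6C5, and Isg15 was at 610.2 and 1421 CPM.

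**Figure D4:**
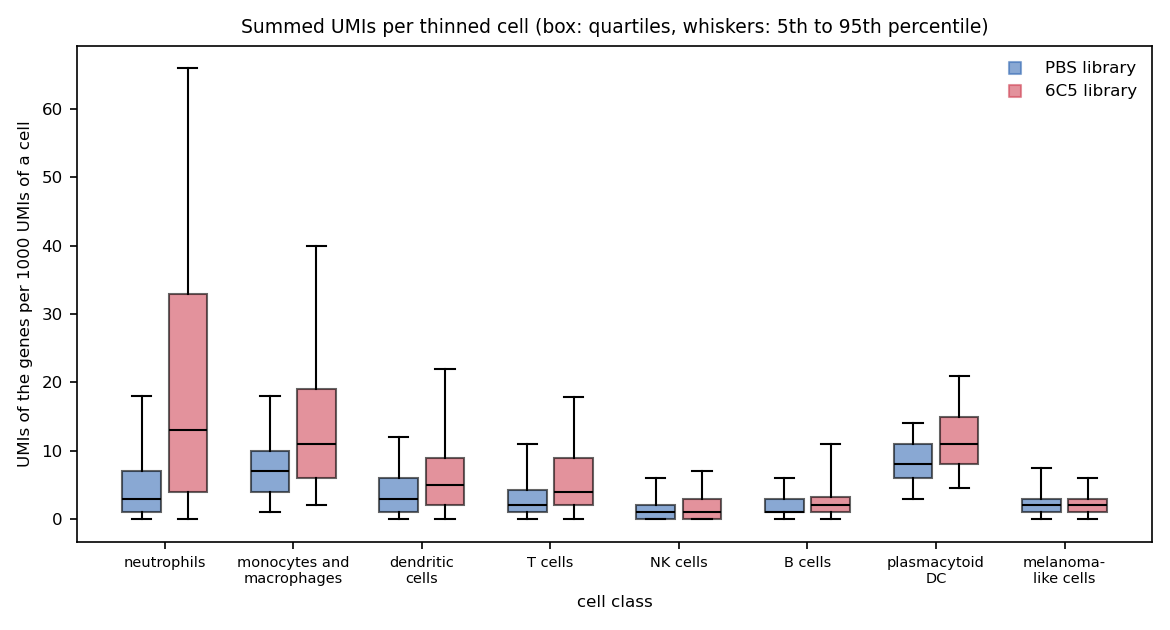
UMIs of the 34 genes per cell after thinning to 1000 UMIs, by cell class, in the PBS library (blue) and the 6C5 library (red). Boxes show quartiles with the median as a line and whiskers the 5th to 95th percentile of cells, and cells are not replicates. The 6C5 neutrophil box spans 4 to 33 and the PBS box 1 to 7, whereas the boxes of NK, B and melanoma-like cells nearly coincide.

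The rest of the pathway was described from 4 lists. Among ligands, Ifnb1 was concentrated in monocytes and macrophages, at 45.3 CPM in PBS and 44.5 CPM in 6C5, a ratio of 0.984 (0.903 to 1.07), which turned to above 1 under TMM factors (log2 0.29). Within the monocyte-like subclusters M.0 and M.1 it was lower in 6C5 on the CPM scale, at 188 and 95.9 CPM in M.0 and 185 and 91.5 CPM in M.1. Ifna1 was at 6.70 and 0.769 CPM in monocytes and macrophages, a ratio of 0.115 (0.0653 to 0.189), from 174 and 17 UMIs. In dendritic cells Ifnb1 was at 12.7 and 12.5 CPM. Ifng, the ligand of the other interferon receptor, was at 221 and 117 CPM in T cells, a ratio of 0.528 (0.466 to 0.598), and at 133 and 139 CPM in NK cells, a ratio of 1.04 (0.873 to 1.25).

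Genes that lean to interferon-gamma, such as guanylate-binding proteins, gave different pictures by class. In neutrophils 13 of the 15 with at least 100 UMIs were at least 2-fold higher, against 9.15% of genes with that many UMIs, with a median log2 ratio of 1.96. Cxcl10, a chemokine that both interferon types induce, was at 160.2 and 2614 CPM there, a ratio of 16.3 (14.3 to 18.7). In monocytes and macrophages 1 of 23 was at least 2-fold higher (2.76%) and 1 at least 2-fold lower (11%), 3 and 1 under TMM factors, the median log2 ratio was -0.01 (0.31 under TMM factors), and Cxcl9 was at 218 and 222 CPM. In T cells the median of 21 genes was 0.13 and none was at least 2-fold higher (0.542%). Psmb8, an immunoproteasome gene, was at 913 and 835 CPM in T cells.

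Receptors and signal transducers gave few genes past 2-fold. In monocytes and macrophages none of 16 was at least 2-fold higher (2.76% of genes with at least 100 UMIs, the base of each share given here) or lower (11%), and the median log2 ratio was 0.23 (0.55 under TMM factors). In dendritic cells none of 16 was higher (1.57% of all genes) or lower (1.17%) by that much. In neutrophils 3 of 13 were at least 2-fold higher (9.15% of all genes) and 1 at least 2-fold lower (11.5%), which became 4 and 0 under TMM factors. The lower gene was Socs3, a feedback inhibitor of JAK signalling, at 553 and 247 CPM, a ratio of 0.447 (0.404 to 0.495), with a log2 ratio of -1.16 on the CPM scale and -0.77 under TMM factors. The receptor chain Ifnar2 was at 212 and 163 CPM (log2 0.00 under TMM factors). Among nucleic acid sensors in neutrophils 3 of 8 were at least 2-fold higher (9.15% of all genes), and 5 of 8 under TMM factors. Ddx58, which encodes RIG-I, was at 45.3 and 157 CPM, a ratio of 3.47 (2.67 to 4.57), and Samhd1 at 417 and 466 CPM.

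Melanoma-like cells, which had passed the CD45 sort, lay close to their PBS level. Their sum was 2110.4 CPM in 180 PBS cells and 2386 CPM in 403 6C5 cells, a ratio of 1.13 (1.11 to 1.15), and the median log2 ratio was 0.14, against -0.09 over all genes. Of 33 genes measured, Isg20 and Oas3 were at least 2-fold higher (2.8% of 12231 genes) and none at least 2-fold lower (4.07%). Ifit1 was at 65.9 CPM in PBS and 37.9 CPM in 6C5, a ratio of 0.576 (0.508 to 0.653), and the other 3 measured Ifit genes had ratios from 0.777 to 0.835, none of them 2-fold lower. Under TMM factors Ifit1 was at 0.638 (0.564 to 0.724), and the intervals of the other 3 included 1. Immune cells of the same tumours had ratios above 2 for Ifit1 wherever it was measured.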

How the data were processed

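Single-cell RNA-seq was measured with 10x Genomics v3 chemistry, per the labels' protocols, in 1 PBS and 1 6C5 library. The authors deposited UMI counts per gene and barcode, unfiltered, with 546897 and 566018 barcodes listed. The file headers name Cell Ranger 7.1.0, whereas the submitters' processing notes name version 2.1.1, with build mm10.

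A barcode was taken as a cell from 500 UMIs and 300 genes upward if mitochondrial UMIs made up no more than 10% (13992 and 13541 barcodes). Scrublet's automatic threshold called 0 doublets in either library and so had not worked, and the barcodes with the highest scores were removed instead, at 0.8% per 1000 cells (1566 and 1467). Cells of both libraries were clustered together (scanpy 1.11.5, leidenalg 0.10.2, Python 3.11.15) on variable genes without the members and the pathway lists, and named from fixed marker lists. Counts were summed per class and library, and ratios were given exact 95% binomial intervals (scipy 1.17.1), which cover counting error only. PCR duplicates were collapsed by UMI. Nothing in the sources says how many animals a library holds.

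All members were described by role wherever they had at least 30 UMIs over both libraries of a class, and pathway genes at 100. Values are given for only some of the genes counted in the pathway lists, and those left out include 1 gene that is not reported here. The members and lists were chosen with earlier results of these data known. Alternatives covered scaling (TMM from edgeR 4.0.16 in R 4.3.3, and size factors), filters, doublets, clustering, free RNA, weighting by cell and by subcluster. Restriction to shared subclusters and removal of barcodes kept in both libraries were chosen after seeing the data. The ratio calls were tested on simulated data for neutrophils (5896 genes), where 99.0% of 3-fold and 93.0% of 0.333-fold genes were called in the right direction. The simulated counts held counting error alone, so this recovery says nothing about differences between cells, mice, sorts or captures.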

Additional observations from a re-analysis of the deposited data

Results flagged for a closer look

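For 12 pairs of gene and class the counting interval of the ratio, 6C5 over PBS, lay below 1 while it lay above 1 for the same gene in another class. These differences between classes were not tested, since each class has 1 library per group. The 12 pairs were 7 of 33 genes measured in melanoma-like cells, 2 of 29 in NK cells and 3 of 34 in monocytes and macrophages. Of all measured genes in these classes, the interval lay below 1 in 28%, 9.52% and 58.3%. In melanoma-like cells the ratios were 0.576 for Ifit1, 0.777 for Ifit2, 0.835 for Ifit3, 0.822 for Ifit3b, 0.702 for Oasl1, 0.678 for Stat2 and 0.72 for Ddx60. All 7 ratios stayed below 1 under TMM factors and size factors, but under TMM factors the interval included 1 for Ifit2, Ifit3, Ifit3b and Ddx60 and lay below 1 for the other 3. In NK cells the ratios were 0.536 for Dhx58, from 37 and 20 UMIs, and 0.762 for Ifi27l2a, from 303 and 233 UMIs, and both stayed below 1 under these scalings. In monocytes and macrophages the ratios were 0.817 for Ddx60, 0.943 for Ifih1 and 0.868 for Oas2, and these 3 turned to above 1 under both scalings. Under TMM factors the interval included 1 for Ddx60 and Oas2 and lay above 1 for Ifih1.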

How the results depend on the processing

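The median log2 ratio of the genes stayed above 0 in all 7 immune classes under every alternative run (13 to 15 per class). The count of genes at least 2-fold higher moved by over 1.5 times under a few. In neutrophils it went from 30 to 17 with subclusters weighted by their pooled share and to 19 with only subclusters of at least 30 cells in each library. In monocytes and macrophages it went from 11 to 17 under TMM factors, 18 under size factors and 0 with weighted subclusters. In T cells it went from 10 to 16 with at least 1000 UMIs per cell. With a minimum of 100 UMIs, fewer genes were measured, and the count was 2 in NK cells, 0 in B cells and 5 in plasmacytoid dendritic cells. With free RNA subtracted, the ratios of Bst2, Dhx58, Ifit2 and Oas1g in neutrophils moved by over 1.5 times, all upward, and Phf11d gave no value. Eif2ak2 in neutrophils turned to a log2 ratio of -0.41 with weighted subclusters. The cause was not tested. Of 3027 single-gene values, 2704 lay within the counting interval of the main setting, 322 moved outside it and 1 reversed. Keeping the 2-fold call was a separate matter. Calls held in every alternative that measured the gene for 13 of 30 genes in neutrophils and 0 of 11 in monocytes and macrophages. In dendritic cells 9 of 10 held. Of these called genes, 29, 11 and 10 stayed above PBS throughout. Without the barcodes kept in both libraries the counts were 30, 11, 10, 10, 5, 4 and 8 in the order neutrophils, monocytes and macrophages, dendritic cells, T, NK, B and plasmacytoid dendritic cells. No paired analysis was possible because each group has 1 library. With 1 library per group, differences between mice, sorts or captures and the treatment cannot be told apart. Depth limits the number of genes measured most in B cells (24), plasmacytoid dendritic cells (27) and NK cells (29). PBS neutrophils held 1435917 UMIs, fewer than the 1855023 of PBS NK cells, so depth limits their ratios as well.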
